A study of Mus musculus with 6 samples.

Results

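The genes described here are 9 complement components and regulators, *C1ra*, *C2*, *C3*, *C4b*, *Cfb*, *Cfd*, *Cfp*, *Serping1* and *C3ar1*. They were taken by symbol from the 23352 gene symbols measured by RNA-seq in stromal cells of mouse omentum, and all 9 symbols were found. Cells of wild-type C57BL/6 mice were sorted by flow cytometry into populations P1 to P6, and each population had 1 library. P1, P2 and P3 were negative for CD45 and positive for CD140a and CD105, with high, intermediate and low activity of aldehyde dehydrogenase (ALDH), the enzyme activity that makes retinoic acid from retinaldehyde. P4 (intermediate ALDH activity) and P5 (low activity) were likewise CD45- and CD140a+ but lacked CD105, and P6 was CD45- and CD140a low with ALDH activity. No treatment is named in the labels. The age, sex and number of the mice, and any pooling of them, are not given in the sources used here.

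Complement is a set of plasma and tissue proteins that cleave each other in a cascade on microbes and damaged cells. In the classical pathway, the recognition protein C1q activates the proteases C1r and C1s, which cleave C4 and C2 to form an enzyme that cleaves C3. In the alternative pathway, factor D cleaves factor B bound to activated C3, and properdin stabilizes the resulting enzyme. C1 inhibitor, encoded by *Serping1*, blocks C1r and C1s, and the receptor C3aR binds the small fragment released from C3. The liver makes most plasma complement, while fibroblasts, macrophages and adipocytes also express components locally. Factor D is also known as adipsin, a product of adipocytes.

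Values are FPKM, the fragments counted on a transcript per kilobase of its length and relative to the depth of the library, so levels can be set side by side between genes. The depth recovered from the steps of low values was 37.0 M reads in P6 and 53.3 to 61.6 M in the others. Ratios below carry 95% intervals computed from estimated reads. With 1 library per population, no test between populations was possible, and the intervals cover counting error but not differences between mice or sorts. They also leave out error in the estimated reads and in the division of reads that match more than 1 gene. In bulk libraries of this kind, fewer cells of a type and less RNA per cell cannot be told apart.

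The sort markers followed the gates. *Pdgfra*, which encodes CD140a, was at 117 to 154 FPKM in P1 to P5 and at 5.36 in P6, and *Eng*, which encodes CD105, was at 42.6 to 52.4 in P1 to P3 and at most 0.728 in P4 to P6. The CD45 gene *Ptprc* did not exceed 0.755 FPKM. Genes of other cell types differed between libraries. All 9 mesothelial markers found were highest in P6, with a summed level of 2938 FPKM there, 933 and 757 in P4 and P5, and at most 148 in P1 to P3. All 10 pancreatic acinar genes were also highest in P6, with a sum of 1759 FPKM there, 1194 in P4 and 4.06 to 224 in the rest.

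*Serping1*, *C4b*, *C1ra*, *Cfb* and *C2* were abundant in every population. Among all symbols *Serping1* ranked between 12 and 46, *C1ra* between 141 and 192, and *Cfb* between 180 and 333. *C4b* ranked from 39 in P1 to 669 in P6, and *C2* from 691 in P1 to 76 in P6. *Cfp* was low, *C3ar1* was below 1 FPKM throughout, *Cfd* was high in P6 only, and *C3* was listed at 0 in all 6 libraries.

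**Figure D1:**
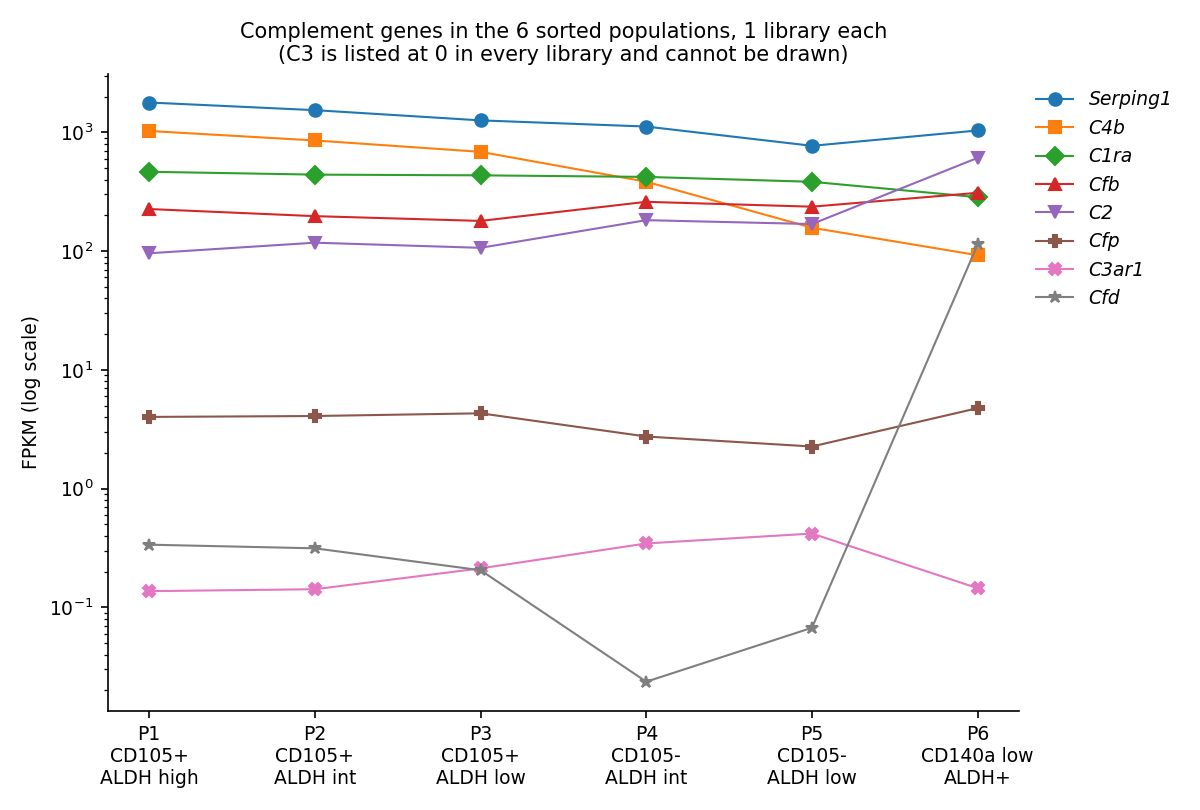
FPKM on a log axis of 8 of the 9 complement genes in P1 to P6, with 1 library per point. Lines join the points of a gene, "int" stands for intermediate, and *C3* is listed at 0 and not drawn. *C4b* falls from 1028 in P1 to 92.4 in P6, *C2* is highest in P6 at 610, and *Cfd* reaches 114 in P6 and at most 0.337 elsewhere.

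*C4b* and *C1ra* have close copies in the mouse genome. Their sequences are shown where they differ most from the copy, because reads over such stretches are the ones that can tell the copies apart. Positions are those of GRCm38 with the GENCODE M21 annotation. *C4b* lies on the minus strand of chromosome 17 at 34728380 to 34743882, and its copy *C4a* lies on the same strand at 34809092 to 34823464. Their transcripts were 96.1% identical over 5367 aligned bases, with 207 differing bases. The window below has 13 differing bases, in capitals, and lies in exon 21 of both transcripts, at chr17:34735430-34735489 in *C4b* and chr17:34816086-34816145 in *C4a*, both on the minus strand.
C4b: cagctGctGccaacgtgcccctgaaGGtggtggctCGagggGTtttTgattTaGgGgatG
C4a: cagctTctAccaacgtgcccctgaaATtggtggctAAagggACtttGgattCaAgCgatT
*C1ra* lies on the plus strand of chromosome 6 at 124512405 to 124523443, and its copy *C1rb* lies on the same strand at 124570294 to 124581171. Their transcripts were 98.0% identical over 2429 aligned bases, with 49 differing bases. The window below has 11 differing bases, again in capitals, and lies in exon 11 of both, at chr6:124522654-124522713 in *C1ra* and chr6:124580700-124580759 in *C1rb*, both on the plus strand.
C1ra: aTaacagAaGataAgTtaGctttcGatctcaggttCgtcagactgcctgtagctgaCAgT
C1rb: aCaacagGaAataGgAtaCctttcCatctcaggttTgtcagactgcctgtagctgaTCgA

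A read of 76 bases that falls outside such windows can match both copies. Of all 76-base stretches of the *C4b* transcript, 23.2% also occurred in *C4a*, and of those of *C1ra*, 39.8% also occurred in *C1rb*. How reads with more than 1 match were divided is not given in the sources used here, so the level of each copy is uncertain. Within each library, *C4b* was 7.03 to 7.60 times *C4a*, and *C1ra* was 2.70 to 2.96 times *C1rb*. Both ratios therefore stayed nearly constant while *C4b* itself changed 11.1-fold across the 6 populations.

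*C1ra*, which encodes the first protease of the classical pathway, varied little. From P1 to P6 its level was 466, 441, 435, 422, 384 and 285 FPKM. The level thus fell in the order of the gate numbers, although the step from P2 to P3, of 0.02 on the log2 scale, changed sign under common sum scaling and quantile normalization. The highest was 1.64 times the lowest (95% interval 1.61 to 1.66). Among P1 to P5 neighbouring populations differed by at most 1.10-fold, between P4 and P5. *C1s*, its partner protease, was higher in level, at 921, 908, 920, 770, 689 and 440 FPKM from P1 to P6, and it too was lowest in P6. The ratio of *C1ra* to *C1s* was lowest in P3, at 0.473, and highest in P6, at 0.647.

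*C4b*, which encodes a classical pathway component cleaved by C1s, had the widest range of the abundant genes. The level was 1028, 855 and 686 FPKM in P1, P2 and P3, 384 and 157 FPKM in P4 and P5, and 92.4 FPKM in P6. The order again followed the gate numbers, with the CD105+ populations above the CD105- ones and, within each, the level falling with ALDH activity. At intermediate ALDH activity, P2 exceeded P4 by 2.23-fold (95% interval 2.21 to 2.24), and at low activity, P3 exceeded P5 by 4.36-fold (4.32 to 4.40). The first of these fell just short of 2-fold under quantile normalization, with a log2 ratio of 0.99. Between gates of ALDH activity, P1 exceeded P2 by 1.20-fold, P2 exceeded P3 by 1.25-fold, and P4 exceeded P5 by 2.44-fold (2.41 to 2.47). P6 was lower still, at 0.587 of P5 (0.577 to 0.597), so it did not reach a 2-fold difference from each of the others unless P5 was left out. Mesothelial and acinar sums were higher in P4, P5 and P6 than in P1 and P3. In P2 the mesothelial sum was also lower, but the acinar sum, at 224 FPKM, was above the 146 of P5. The part of mesothelial and acinar genes in the fall of *C4b* was not tested.

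*C2* encodes the protease that joins C4b to form the enzyme of the classical pathway, and its highest and lowest populations were those of *C4b* reversed. It was at 96.0, 118 and 107 FPKM in P1, P2 and P3, at 182 and 169 FPKM in P4 and P5, and at 610 FPKM in P6. In the values as deposited, the 3 CD105+ populations lay lowest, the CD105- ones between, and P6 stood apart at the top. P6 exceeded P4, the next highest, by 3.35-fold (95% interval 3.30 to 3.40), and P1, the lowest, by 6.36-fold (6.24 to 6.48). At matched ALDH activity, P2 was at 0.646 of P4 (0.634 to 0.659) and P3 at 0.631 of P5 (0.618 to 0.643), and neither difference reached 2-fold. When levels were divided by *Gapdh*, these log2 differences shrank from -0.63 and -0.66 to -0.16 and -0.12. The ratio of *C4b* to *C2* within a library went from 10.7 in P1 through 7.26, 6.43, 2.11 and 0.931 to 0.151 in P6. The range of that ratio was 70.7-fold.

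**Figure D2:**
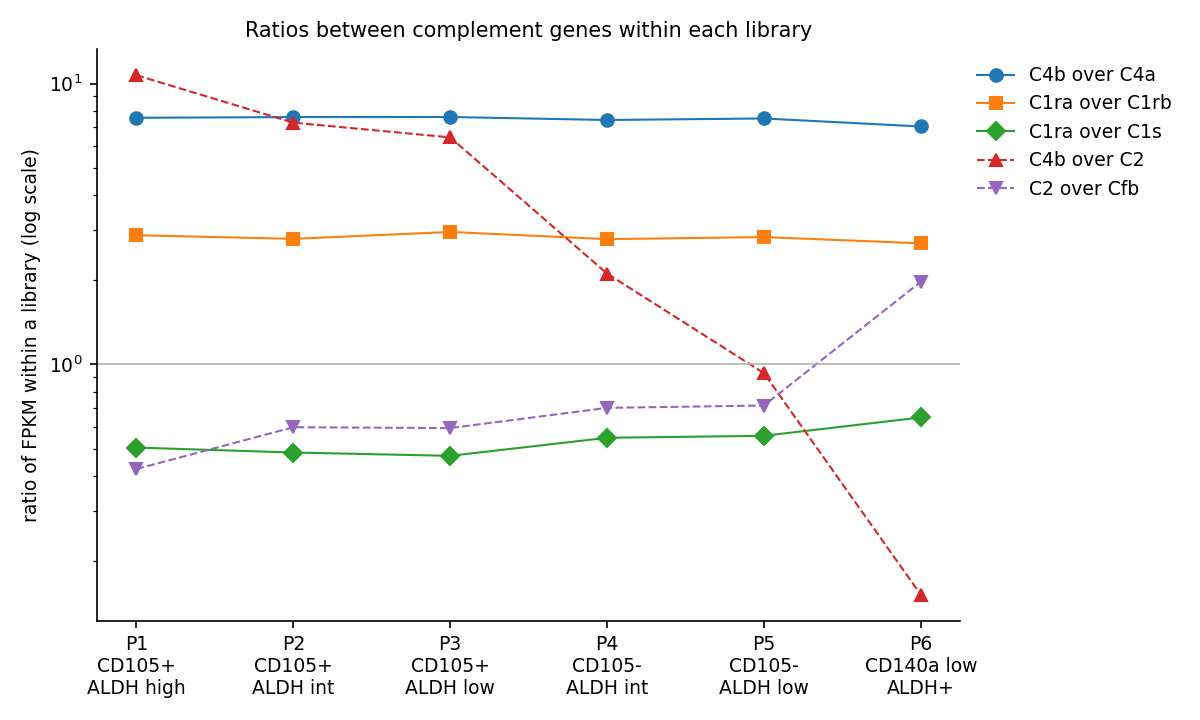
Ratio of FPKM between pairs of complement genes within each library, on a log axis, for P1 to P6, with lines joining the points of a pair and a grey line at equal level. *C4b* over *C4a* stays between 7.03 and 7.60 and *C1ra* over *C1rb* between 2.70 and 2.96, while *C4b* over *C2* drops from 10.7 to 0.151 and *C2* over *Cfb* climbs from 0.424 to 1.97.

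*Cfb* encodes factor B, the alternative pathway counterpart of C2, and lies next to *C2* on the minus strand of chromosome 17, with 85 bases between them. The 6 levels from P1 to P6 were 226, 197, 180, 260, 237 and 310 FPKM. *Cfb* was thus highest in P6 like *C2*, but its highest level was only 1.72 times its lowest (95% interval 1.70 to 1.75), and P6 exceeded P4 by 1.19-fold (1.17 to 1.21). The ratio of *C2* to *Cfb* was 0.424 in P1, between 0.594 and 0.714 in P2 to P5, and 1.97 in P6. P2 was at 0.757 of P4 and P3 at 0.759 of P5 for *Cfb*. These log2 differences of -0.40 and -0.40 turned to 0.07 and 0.14 when levels were divided by *Gapdh*, so no direction with CD105 is given for *Cfb*. GENCODE M21 also lists a transcribed read-through gene over both, *Gm20547*, which holds 81.6% of the 76-base stretches of *Cfb* and 55.5% of those of *C2*, and which is not a symbol of the tables used here.

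*Cfd*, the gene of factor D, was near 0 in P1 to P5 and high in P6. From P1 to P5 it was at 0.337, 0.314, 0.205, 0.0236 and 0.0673 FPKM, and in P6 at 114 FPKM. These levels correspond to about 13, 14, 9, 1 and 3 reads in P1 to P5, against 3044 in P6. The level in P6 was 338 times that in P1, the highest of the others (95% interval 197 to 633). At so few reads P1, P2 and P3 were not distinguishable, since P1 was 1.07 times P2 (0.464 to 2.46) and P2 was 1.53 times P3 (0.617 to 4.01). *Cfd* was rank 517 among all symbols in P6, below *C2*, *Cfb* and *C1ra*.

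Adipocyte genes moved with *Cfd* in part. Of 10 adipocyte markers, 6 were highest in P6, among them *Adipoq* at 14.7 FPKM against at most 0.785 elsewhere, and *Cidec* at 8.72 against at most 0.175. *Lpl* and *Pparg* were lowest in P6, at 24.9 and 1.43 FPKM. *Lep*, the gene of leptin, was listed at 0 in every library but P3, where it was at 0.0162 FPKM. The summed level of the 10 markers was 262 FPKM in P6 and 413 to 605 in P1 to P5, a sum carried by *Lpl* and *Fabp4*. The level of *Cfd* was 7.73 times that of *Adipoq* in P6. The part of these cells, and of the mesothelial and acinar genes also highest in P6, in the levels of *Cfd* and *C2* was not tested.

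**Figure D3:**
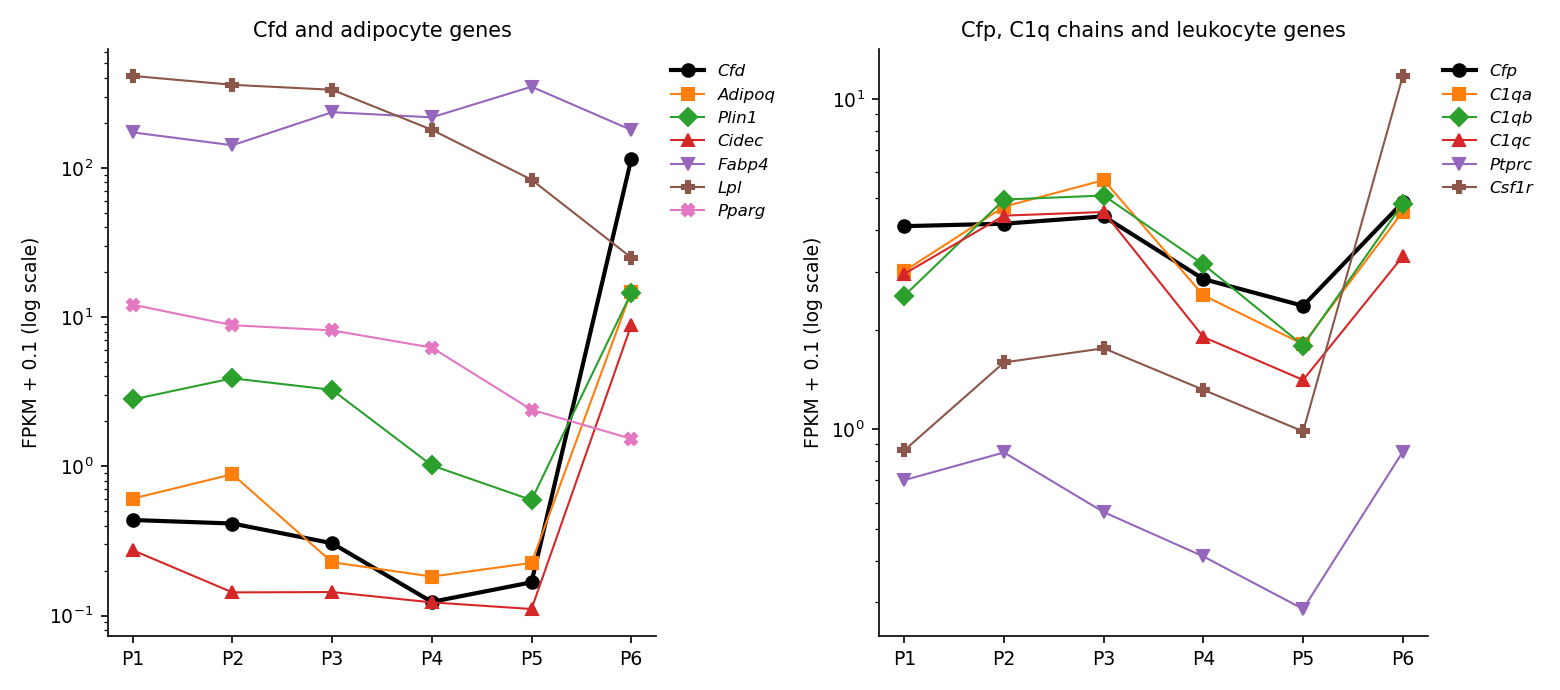
FPKM + 0.1 on log axes in P1 to P6, 1 library per point, with lines joining the points of a gene. Left, *Cfd* (thick line) with adipocyte genes: *Adipoq*, *Plin1* and *Cidec* are highest in P6 with *Cfd*, while *Lpl* and *Pparg* are lowest there. Right, *Cfp* (thick line) with the C1q chains and leukocyte genes: *Cfp* and the 3 C1q chains are lowest in P5, and *Ptprc* does not exceed 0.755 FPKM.

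*Cfp*, the gene of properdin, was low, with P6 highest and P5 lowest (95% interval of their ratio 1.74 to 2.54). Levels from P1 to P6 were 4.02, 4.09, 4.31, 2.75, 2.26 and 4.76 FPKM, each from about 200 to 374 reads. P1, P2, P3 and P6 did not differ beyond counting error, with P6 at 1.11 times P3 (95% interval 0.937 to 1.30). The CD105- populations P4 and P5 were lower, and P3 exceeded P5 by 1.90-fold (1.60 to 2.27). Properdin is made by leukocytes, and the summed level of 12 myeloid markers was 65.1 FPKM in P3, 40.0 in P5, 74.3 in P6 and 26.9 to 45.2 in P1, P2 and P4. Of the 12 markers, 5 were highest in P6, as *Cfp* was, 4 in P3, 2 in P2 and 1 in P5. *Lyz2* had the same order of libraries as *Cfp*, from 26.6 FPKM in P6 to 7.74 in P5. *Csf1r* was at 11.6 FPKM in P6 and at most 1.66 elsewhere. *Fcgr1* was listed at 0 in P1, P3 and P6, as *Cx3cr1* was in P6, which gives no level. The part of myeloid cells in the level of *Cfp* was not tested.

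*C3*, the central component on which all pathways converge, was listed at 0 in all 6 libraries. A listed 0 cannot be read as absence in these files. *Gsn* was listed at 0 in P1 to P3 and at 5350 FPKM in P4, *Fn1* at 0 in P1 and 1258 in P2, and *Col3a1* at 0 in P2 and at least 2100 in the others. In all, 7 genes other than small RNAs were listed at 0 in a library and at 30 FPKM or more in another. These include *Pon1*, at most 0.0864 FPKM outside P6, and *Zg16*, at 0.114 to 43.6 FPKM where not 0. For such genes a listed 0 may stand for a low level. No level or ratio is given for *C3*, and it entered none of the comparisons.

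*Serping1*, the gene of C1 inhibitor, had the highest level of the 9 genes in every population. From P1 to P6 it was at 1786, 1539, 1263, 1120, 771 and 1038 FPKM. P1 was highest and P5 lowest, and the range was 2.32-fold. P3 exceeded P5 by 1.64-fold (95% interval 1.62 to 1.65), P2 exceeded P4 by 1.37-fold (1.36 to 1.38), and P4 exceeded P5 by 1.45-fold (1.44 to 1.47). P6 lay near P4, at 0.927 of it (0.917 to 0.936). Set against *C1s*, one of its targets, the ratio of *Serping1* to *C1s* within a library was lowest in P5, at 1.12, and highest in P6, at 2.36.

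*C3ar1*, the gene of the receptor C3aR, was below 1 FPKM in every library. The 6 levels from P1 to P6 were 0.137, 0.142, 0.213, 0.345, 0.418 and 0.145 FPKM, from about 22 to 106 reads. The CD105- populations were the highest, with P2 at 0.412 of P4 (95% interval 0.271 to 0.617) and P3 at 0.509 of P5 (0.359 to 0.715). P6 was at 0.347 of P5 (0.208 to 0.550) and did not differ from P1 beyond counting error. *C3ar1* is known from macrophages. Of the 12 myeloid markers, 1 was highest in P5, as *C3ar1* was, namely *Mrc1* at 3.83 FPKM. Of the others, 5 were highest in P6, 4 in P3 and 2 in P2. The part of such cells in the level of *C3ar1* was not tested.

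The complement genes were then compared between gates beside all genes. A gene entered a comparison with at least 1 FPKM in a library of it, and was called at a 2-fold difference on the scale of FPKM + 0.1. With P6 set against each of P1 to P5, 7 of the 9 genes entered, 2 were higher in P6 (*C2* and *Cfd*) and 0 were lower. *Cfd* entered only through its level in P6, being below 1 FPKM in P1 to P5, so its call was fixed by the filter. Of all 12904 genes that entered, 6.25% were higher and 4.63% were lower. The log2 difference of P6 was taken from the nearest of the other populations, and was set to 0 where P6 lay within their range. Its median over the 7 genes, *Cfd* included, was 0.14, against 0.00 over all genes. The 0.00 comes from this rule, so the medians are not compared.

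Between gates of ALDH activity, 6 of the 9 genes entered each comparison. For P1 against P2, 0 of them were called, with 0.957% of all genes higher and 4.23% lower. For P2 against P3, 0 were called, with 1.09% of all genes higher and 2.56% lower. For P4 against P5, *C4b* alone of the 6 was called, higher in P4, with 3.93% of all genes higher and 1.44% lower. The median log2 ratios of the 6 genes were 0.14, 0.14 and 0.20 in these comparisons, against -0.05, -0.03 and -0.04 over all genes.

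Between gates of CD105, again 6 of the 9 genes entered. At intermediate ALDH activity, P2 against P4, *C4b* was called higher in the CD105+ population and 0 genes lower, with 4.90% of all genes higher and 7.63% lower. At low ALDH activity, P3 against P5, *C4b* was again the 1 gene called higher and 0 were lower, with 7.33% of all genes higher and 6.29% lower. The medians were 0.26 and 0.45 on the log2 scale, against -0.08 and -0.09 over all genes. After division by *Gapdh*, *Cfp* was also called higher in both comparisons and *Serping1* in the second. The comparisons P2 against P3 and P2 against P4 share the P2 library, and P4 against P5 shares a library with each CD105 comparison. Division by *Gapdh*, which was at 214 to 224 FPKM in P1 to P3 and 302 and 326 in P4 and P5, moved the shares of all genes higher and lower to 10.2% and 4.98% for P2 against P4 and to 13.6% and 3.29% for P3 against P5. Under quantile normalization they were 5.21% and 5.80% for P6 against the rest, and 1.38% and 3.31% for P1 against P2.

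**Figure D4:**
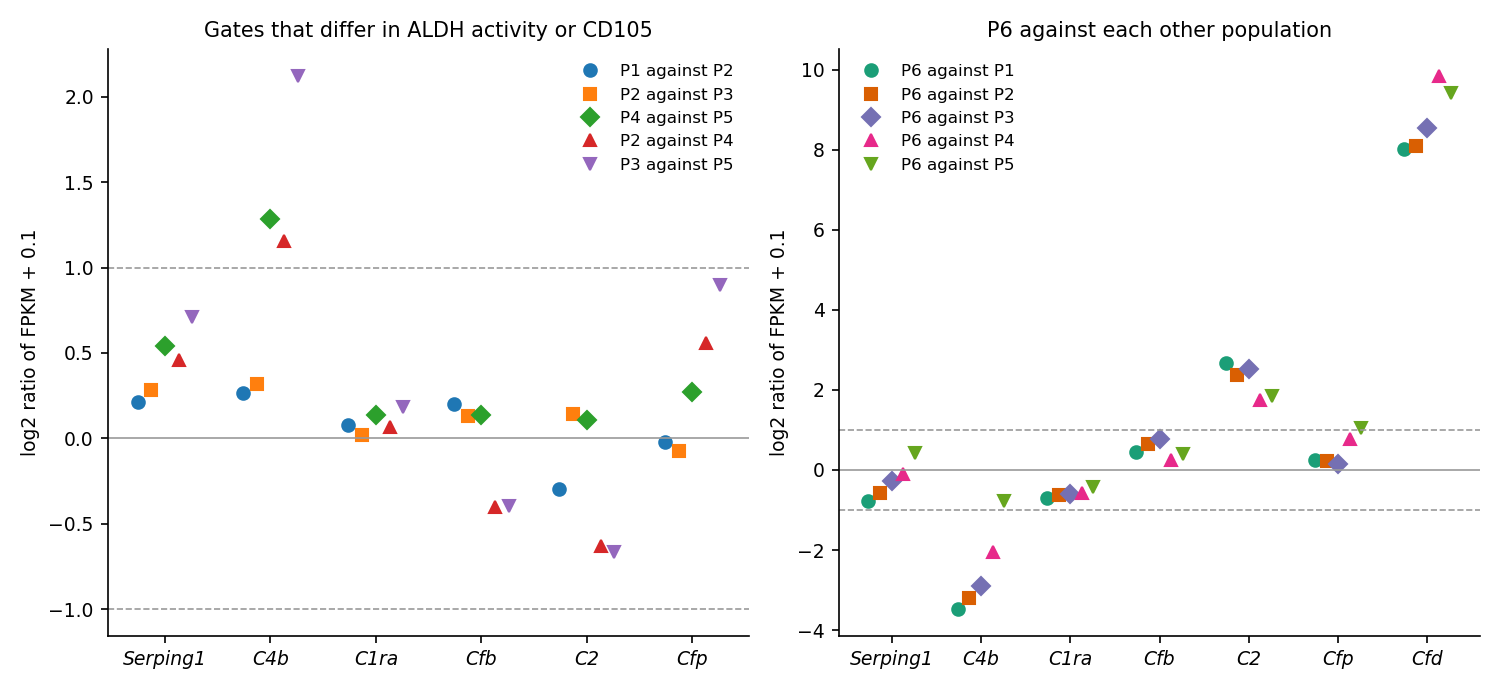
Left, log2 ratio of FPKM + 0.1 for 6 genes in the comparisons of gates that differ in ALDH activity or CD105; right, the same for P6 against each other population, with *Cfd* added. The solid line marks no difference and the dashed lines a 2-fold difference. *C4b* exceeds 2-fold in 3 of the 5 comparisons on the left, and on the right *C2* and *Cfd* lie above 2-fold against all 5 populations.

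The wider complement system was followed with 52 further symbols, of which 47 were in the tables and 24 reached 1 FPKM in a library. The other 23 did not, and 3 of these, *Mbl1*, *C8b* and *C4bp*, were listed at 0 in every library, which as for *C3* gives no level. Those with values below 1 FPKM included the terminal components *Hc* (C5), *C6*, *C8a* and *C9*, the mannose-binding lectin *Mbl2*, and *Cfi*, which encodes the protease that inactivates C3b and C4b. Of the 24, 7 were highest in P6, but 0 were called at least 2-fold higher there than in each other population. In the other direction 4 were called at least 2-fold lower, namely *C7*, *Vtn*, *Cd55* and *Daf2*. *Daf2* is a close copy of *Cd55*, 91.0% identical over the aligned bases. It shares 18.2% of its 76-base stretches with *Cd55*, so these 2 calls may not be separate. The shares called over all genes were the 6.25% higher and 4.63% lower given above. *Daf2* was no longer called after scaling to a common sum, and *Clu* was called higher after division by *Gapdh*.

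Among recognition molecules, the C1q chains were low, in contrast to *C1ra*. *C1qa* was at 2.91, 4.61, 5.57, 2.44, 1.71 and 4.45 FPKM from P1 to P6, and *C1qb* and *C1qc* had the same highest and lowest libraries, P3 and P5. C1q is made mainly by macrophages. The summed myeloid markers were highest in P6 and lowest in P1, a sum carried by *Lyz2* and *Cd14*. Of the 12 markers, 4 were highest in P3, as the C1q chains were, 5 in P6, 2 in P2 and 1 in P5. The part of myeloid cells in these levels was not tested. *Fcna*, the gene of ficolin A, was likewise highest in P3, at 3.97 FPKM, and lowest in P5, at 1.22. *Colec12*, grouped here with the lectin pathway, was not low, with 96.2 FPKM in P1, its lowest library, and 166 in P6, its highest. The level of *C1ra* was 64.0 to 225 times that of *C1qa* in the same library. *Masp1*, the lectin pathway protease, exceeded 1 FPKM in P6 alone, at 1.28.

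Among terminal components, *C7* was at 260, 473 and 249 FPKM in P1, P2 and P3, at 73.6 and 54.2 in P4 and P5, and at 9.18 in P6. It was high in CD105+ populations like *C4b*, but its highest library was P2 rather than P1. *C8g* was the only other terminal gene to reach 1 FPKM, at most 1.84.

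Among soluble regulators, *Clu*, which encodes clusterin, a protein that binds the terminal complex, ran opposite to *Serping1* across P1 to P5. It was at 15.6, 51.7, 151, 269, 306 and 531 FPKM from P1 to P6. *Vtn*, the gene of vitronectin, fell from 11.8 FPKM in P1 to 0.630 in P6. *Serping1* remained the highest of the soluble regulators in every library.

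Membrane regulators protect the cell that carries them. *Cd55* was at 104, 103, 123, 166, 223 and 48.3 FPKM from P1 to P6, so it was highest in P5 and lowest in P6. *Cd59a*, which blocks the terminal complex, was highest in P6, at 7.87 FPKM against 2.62 to 4.63. *Cr1l*, the rodent regulator Crry, stayed between 37.1 and 50.8 FPKM. In P3 against P5, 8 of 21 genes that entered were higher (*C1qa*, *C1qb*, *C1qc*, *Fcna*, *C4a*, *C7*, *Vtn* and *Csmd1*) and 1, *Clu*, was lower, against 7.33% and 6.29% of all genes. That call on *Clu* was lost under 3 of the 4 scalings, where its ratio fell short of 2-fold. In P2 against P4, 3 of 20 were higher (*C1qc*, *C4a* and *C7*) and 1, *Clu*, was lower, against 4.90% and 7.63% of all genes. In P4 against P5, 2 of 20, *C4a* and *Vtn*, were higher, against 3.93% of all genes. Since *C4a* shares 23.2% of its 76-base stretches with *C4b*, its calls may not be separate from those of *C4b*. *Clu* was also lower in P1 than in P2, and in P2 against P3, 2 of 21, *Clu* and *Csmd1*, were lower, against 2.56% of all genes. *Csmd1* was at 1.08 FPKM in P3, 0.393 in P2 and 0.177 in P5. It entered both of its comparisons only through P3, so the direction of its calls was fixed by the filter. The sums by role are dominated by their highest genes, *C1s*, *C4b* and *Serping1*, and are not compared.

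**Figure D5:**
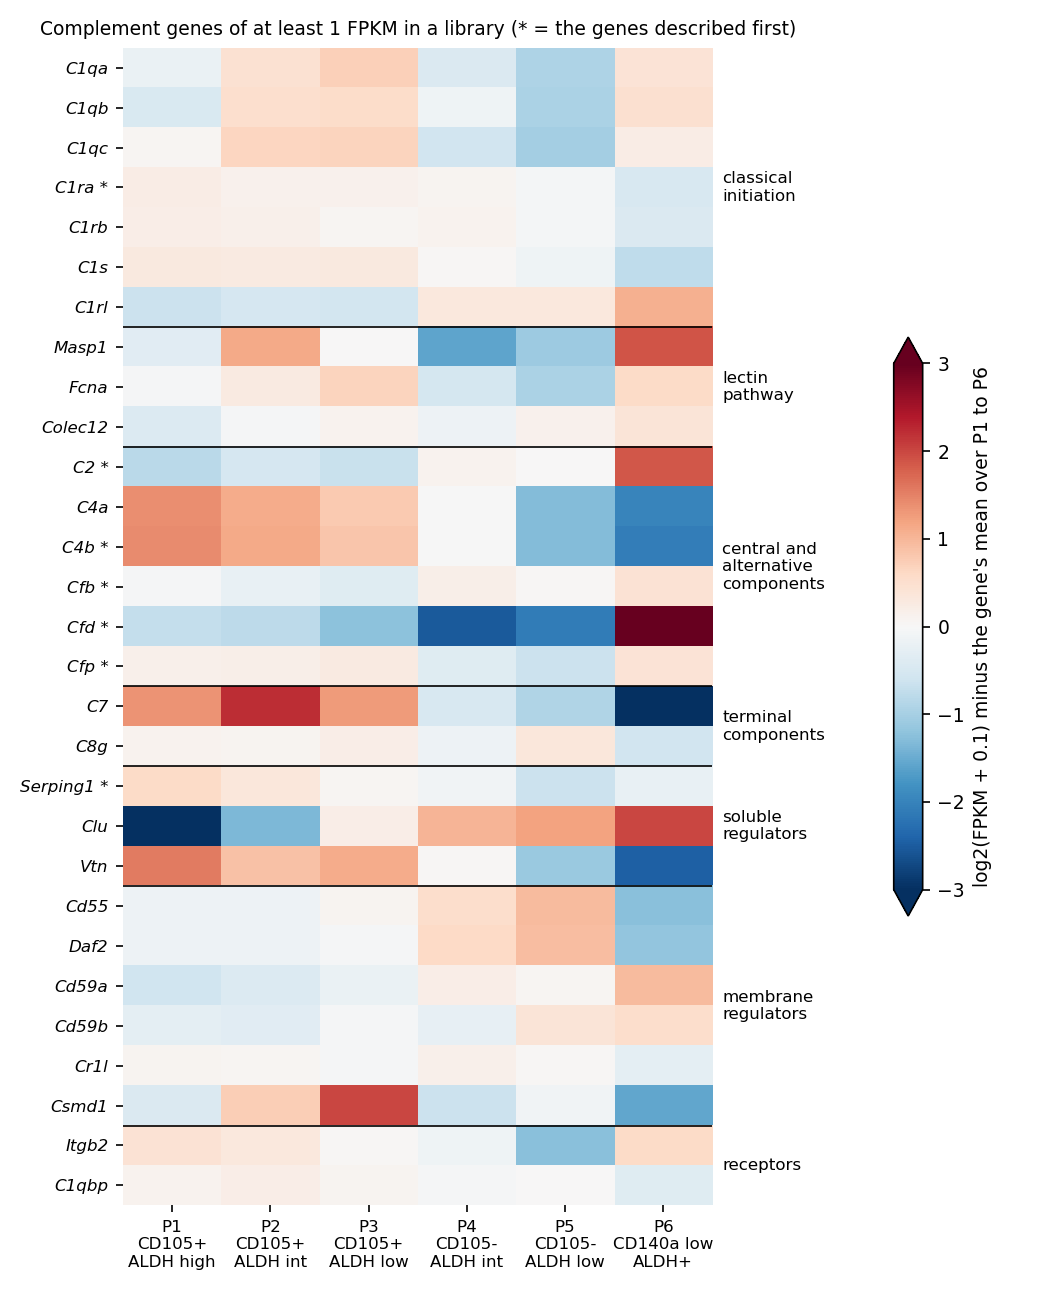
The complement genes reported here with at least 1 FPKM in a library, grouped by role, in P1 to P6. Colour gives log2(FPKM + 0.1) minus the mean of the gene over the 6 libraries, red above and blue below, limited to 3 in either direction, and stars mark the genes described first. *C4b*, *C4a*, *C7* and *Vtn* are red in P1 and blue in P6, and *C2*, *Cfd* and *Clu* are red in P6.

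The genes nearest in pattern to each member of at least 5 FPKM were found by the root mean square difference of centred log2(FPKM + 0.1) over the 6 libraries, among 9790 genes. For *C4b* the nearest was its copy *C4a*, at 0.04, followed by *Gm11744* and *St6galnac5* at 0.10 and 0.11. For *C2* it was *Eml2*, at 0.06, followed by *Atp8a1* and *Fbxo32*, and for *Cfb* it was *Wrb*, at 0.03, followed by *Cdk2ap2* and *Cds2*. For *C1ra* it was *Cyba*, at 0.02, with *Galnt11* and *Mrpl20* next, and for *Serping1* it was *Klf13*, at 0.06, with *Col6a1* and *Rps12* next. *Cfd* had no neighbour as close, the nearest being *Cyp2e1* at 0.54, at 57.2 FPKM in P6 and at most 0.209 elsewhere, and then *Mir5130* and *Pon1*. The 6 libraries give few points for such a likeness, and genes that hardly vary, such as *C1ra* and *Cfb*, find near neighbours easily.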

How the data were processed

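RNA-seq was analyzed for 6 stromal populations of wild-type mouse omentum, with 1 library each. RNA was purified with a column kit, libraries were made with NEBNext Ultra, and single-end reads of 76 bases were sequenced on a NextSeq 500. The authors deposited FPKM values, and the submitters' processing notes name TopHat2 2.0.7, Cufflinks 2.1.1 and the mm10 build. The annotation, the use of strand and the treatment of reads with several matches are not given in the sources used here.

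Rows repeating a symbol (495 per library) were summed. A gene was called at a 2-fold ratio of FPKM + 0.1 with at least 1 FPKM in a library of the comparison. P6 had to pass against each of P1 to P5. Reads were estimated from FPKM steps of single-transcript genes, assuming a fragment of 200 bases. Of values up to 10 reads, 54.1% to 60.0% came out within 0.05 of a whole number (10% by chance). The reads are thus approximate, and they were used for the intervals but for no p-value. Ratio intervals were exact binomial (Clopper-Pearson, 95%). Positions, transcripts and sequences came from GENCODE M21 on GRCm38, the assembly of mm10, and transcripts were aligned with Biopython 1.88. The depth estimate and the calls were tested on simulated data. Genes named were the 9 genes, wider complement genes of at least 1 FPKM, copies, the 3 nearest patterns and leading marker genes; the genes below 1 FPKM, those listed at 0 and other marker genes were picked after values were seen. Some genes of the wider lists are not reported here. The genes and lists were chosen with earlier results of these data known. Other pseudocounts, filters, folds, scalings and left-out populations were tried. Software was Python 3.11.15 with pandas 2.3.3, scipy 1.17.1, numpy 2.4.6 and, for plots, matplotlib 3.10.9.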

Additional observations from a re-analysis of the deposited data

Results flagged for a closer look

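*Cfd* and *Cfp* had log2 ratios of opposite sign between intermediate and low ALDH activity in CD105+ and in CD105- cells. For *Cfd* the ratio of P2 to P3 was 0.44 and that of P4 to P5 was -0.44 on the log2 scale of FPKM + 0.1, from about 14, 9, 1 and 3 reads. For *Cfp* the ratio of P2 to P3 was -0.07 and that of P4 to P5 was 0.27. Neither difference was tested, since each population had 1 library, and for *Cfp* the first became 0.01 under quantile normalization.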

How the results depend on the processing

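No paired analysis was possible because there was 1 library per population. The calls were recomputed with pseudocounts of 0.01 and 1 FPKM, no filter or a minimum of 5 FPKM, a fold of 1.5, 4 scalings and the highest row of a repeated symbol, and for P6 also with each other population left out. P6 against the rest kept *C2* and *Cfd* under all of these, and *C4b* joined as lower at a fold of 1.5 and without P5, which gave 3 genes. P1 against P2 and P2 against P3 gave 0 and P4 against P5 gave 1, *C4b*, throughout. P2 against P4 gave 2 with no filter (*Cfd* added, from 14 and 1 reads), 2 at a fold of 1.5 (*C2*, lower), 2 after division by *Gapdh* (*Cfp*) and 0 under quantile normalization, where the log2 ratio of *C4b* was 0.99. P3 against P5 gave 4 at a fold of 1.5 (*Cfp* and *Serping1* higher, *C2* lower) and 3 after division by *Gapdh* (*Cfp* and *Serping1*).

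The highest library of *Cfp* changed from P6 to P3 after division by *Gapdh* and to P1 under quantile normalization, which also moved that of *C1ra* from P1 to P3. Shifts were taken over the genes above 1 FPKM in all 6 libraries. Division by *Gapdh* moved them by a median of 0.28 in P1 and -0.33 in P5 on the log2 scale, and quantile normalization by 0.15 in P1. Of 288 recomputed log2 ratios, 10 turned to the opposite sign and 5 more came from or went to exactly 0. The largest of these as deposited was -0.40 (*Cfb*, P2 against P4). Depth limits *Cfd* in P1 to P5 and *C3ar1*.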
